A study of Homo sapiens with 12 samples.

Results

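Forkhead box O (FOXO) factors are linked to a set of genes that hold back growth, stop the cell cycle and adjust the use of glucose and amino acids. The 10 such genes described here were followed in A549, a widely used line derived from a human lung adenocarcinoma: DEPP1, TXNIP, ARRDC4, IRS2, SESN1, SESN3, CCNG2, BCL6, PIK3IP1 and FOXO1. They were chosen by gene symbol, through the Ensembl identifiers of the count table, and make up 10 of its 60676 gene rows. The choice was made from measured values as well as from function: the low level of DEPP1 after TGF-β was already known, and other results of these libraries were in view. The responses of the members to TGF-β are therefore given as a description with no test. All 10 passed the filter on low counts, which kept 16192 genes.

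The study placed A549 cells in 4 groups of 3 libraries, 12 in all. Cells had been transduced with lentivirus carrying either an empty pCDH-EF1a-PURO vector (Co.vec) or the long non-coding RNA LETS1, and all groups had been selected with puromycin. Each of these cell populations was then kept for 4 h in ligand buffer or in 5 ng/mL TGF-β. The labels do not say whether the libraries of a group came from separate transductions, so p-values measure the spread between these libraries, which may be technical. No row carries the symbol LETS1, and the level of the construct was not checked here. The libraries held between 19705135 and 20351043 fragments assigned to genes. The 6 epithelial line markers summed to between 10573 and 15190 CPM (fragments of a gene divided by the library's scaled total, on the usual scale) in every library, and those of fibroblasts, leukocytes and endothelial cells each to at most 2.68 CPM. The epithelial sum was lower in LETS1 cells: 10573 to 10863 against 13253 to 14311 CPM in Co.vec cells with buffer. With TGF-β it was 11828 to 12103 against 13682 to 15190 CPM. Most of the sum came from KRT8, KRT18 and AKR1B10, which averaged lower in LETS1 cells in both states, as did KRT19. With buffer, EPCAM averaged 6.79 CPM in Co.vec and 7.73 CPM in LETS1 cells, and CDH1 95.9 and 97.6 CPM. With TGF-β, EPCAM averaged 7.89 and 7.40 CPM, and CDH1 71.3 and 74.4 CPM. The markers were not tested. Library totals were scaled by the trimmed mean of M-values (TMM), and group levels are given as mean ± SD over 3 libraries. In bulk RNA, fewer cells of a type and less RNA per cell cannot be told apart.

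As background, insulin and growth factors act through IRS adaptors, PI3K and AKT, and AKT keeps FOXO factors out of the nucleus; when AKT is low, FOXO factors bind forkhead sites and raise genes of arrest, autophagy and nutrient sensing. TXNIP and ARRDC4 are arrestin-like proteins that limit glucose uptake and are textbook targets of the sugar-sensing factor MondoA, which acts at E-box pairs. SMAD proteins, which carry the TGF-β signal, can form complexes with FOXO factors at some promoters.

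The 250 bases before the RefSeq start are shown for DEPP1, TXNIP and ARRDC4, since DEPP1 and TXNIP hold the forkhead core and TXNIP and ARRDC4 hold the E-box type letters. The build is GRCh38.p14, read 5′ to 3′ on the gene's own strand. The windows are chr10:44978810-44979059 on the minus strand, chr1:145996580-145996829 on the minus strand and chr15:97960453-97960702 on the plus strand. Capitals mark the forkhead core TGTTTAC or its reverse complement GTAAACA, the carbohydrate response pattern, which is CACGNG and CNCGNG with any 5 bases between, and the E-box CACGTG.
DEPP1: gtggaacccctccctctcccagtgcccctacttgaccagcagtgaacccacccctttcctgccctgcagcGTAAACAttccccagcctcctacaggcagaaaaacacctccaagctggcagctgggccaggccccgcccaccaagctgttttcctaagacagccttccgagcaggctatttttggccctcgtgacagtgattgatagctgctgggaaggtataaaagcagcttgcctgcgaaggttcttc
TXNIP: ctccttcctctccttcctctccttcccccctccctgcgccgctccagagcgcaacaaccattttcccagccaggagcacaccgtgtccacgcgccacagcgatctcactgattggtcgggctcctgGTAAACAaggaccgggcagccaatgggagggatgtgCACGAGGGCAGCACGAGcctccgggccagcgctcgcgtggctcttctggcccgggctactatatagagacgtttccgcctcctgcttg
ARRDC4: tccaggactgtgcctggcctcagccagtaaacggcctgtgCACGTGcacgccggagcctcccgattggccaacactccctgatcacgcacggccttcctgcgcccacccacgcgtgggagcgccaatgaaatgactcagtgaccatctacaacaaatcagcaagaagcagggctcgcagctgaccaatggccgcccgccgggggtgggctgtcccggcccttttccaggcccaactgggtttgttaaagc
The forkhead core began 180 bases before the start of DEPP1 and 124 bases before 1 of the 2 starts of TXNIP, the one printed, in both as GTAAACA. PIK3IP1 also held TGTTTAC just after one of its 2 starts. The carbohydrate response pattern was found 88 bases before that same TXNIP start, as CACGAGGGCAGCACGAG, and in no other member. An E-box lay 210 bases before the start of ARRDC4 and 30 before that of CCNG2, and the insulin response letters TGTTTTG lay 40 before that of IRS2. Over 35116 promoters of the same 300 bases, searched on both strands, the forkhead core was in 3.42%, the carbohydrate response pattern in 0.501%, the E-box in 7.26% and TGTTTTG in 4.92%. In all 11 patterns were searched; those shown, and the 3 promoters printed, were picked after the matches were seen. Of the other 6, the short forkhead letters TTGTTT were in 6 members (17.9% of promoters) and TATAAA in DEPP1 (11.5%). The rest were searched as SMAD letters. Of these, GGCGCC was in 4 members (19.2%), FOXO1, IRS2, PIK3IP1 and SESN1, and GTCTGNCT in SESN1 (4.62%). AGCCAGACA (0.288%) and CAGACAG (6.11%) were in none. A member counts if any of its starts matched, while the shares are per promoter, so the 2 are not in the same unit. SESN1 has 3 starts, and TXNIP, BCL6 and PIK3IP1 have 2 each. The palindromic SMAD letters GTCTAGAC (0.202%) were in no member. These matches are letters in a window and show no binding.

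DEPP1, a FOXO target linked to autophagy and oxidative stress, was nearly silent in every library given TGF-β. It is encoded on chromosome 10, 44970981 to 44978810, minus strand (GRCh38, GENCODE release 29). In Co.vec cells with buffer its level was 2.08, 2.03 and 2.30 CPM, and with TGF-β 0.360, 0 and 0.0502 CPM. In LETS1 cells the values were 1.86, 2.26 and 1.91 CPM with buffer, and 0.205, 0.151 and 0.102 CPM with TGF-β. All 6 TGF-β libraries lay below all 6 buffer libraries. These levels rest on few fragments: 42, 41 and 46 in the Co.vec buffer libraries against 7, 0 and 1 with TGF-β, and 38, 46 and 39 in the LETS1 buffer libraries against 4, 3 and 2. The library with none allows up to 3 counts, or 0.154 CPM. Summed over libraries, 129 fragments stood against 8 in Co.vec cells, a level 15.7 times higher with buffer (95% exact counting interval 7.74 to 37.2), and 123 against 9 in LETS1 cells, 13.2 times higher (6.71 to 29.5). The intervals cover counting error only, not the choice of DEPP1 with this low level known, and they are no test. The fitted log2 fold change was -3.91 (SE 0.40) in Co.vec cells and -3.67 (SE 0.39) in LETS1 cells. Without Co.vec TGF-β replicate 1, which holds 7 of the 8 fragments, the first became -6.07. By size DEPP1 ranked 1 of 16192 genes among the falls in Co.vec cells and 5 in LETS1 cells. Since DEPP1 was picked with its fall known, and passed the filter on low counts only through its buffer libraries, this rank is a description.

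DEPP1 lies inside RASSF4, which is read from the opposite strand, and the 2 share 695 bases of exon. Whether the authors counted by strand is not given in the sources used here. Without strand, fragments in that stretch could not be told apart and could have been set aside as ambiguous, counted for neither gene. RASSF4, looked at after its overlap was seen, had 1.97 ± 0.124, 1.40 ± 0.263, 2.58 ± 0.288 and 1.19 ± 0.134 CPM in Co.vec buffer, Co.vec TGF-β, LETS1 buffer and LETS1 TGF-β libraries. Its change with TGF-β had an adjusted p of 0.0548 in Co.vec cells (log2 -0.50) and 2.23e-05 in LETS1 cells (log2 -1.12) in edgeR's quasi-likelihood test. The other members overlap genes with a mean of at most 0.237 CPM.

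**Figure D1:**
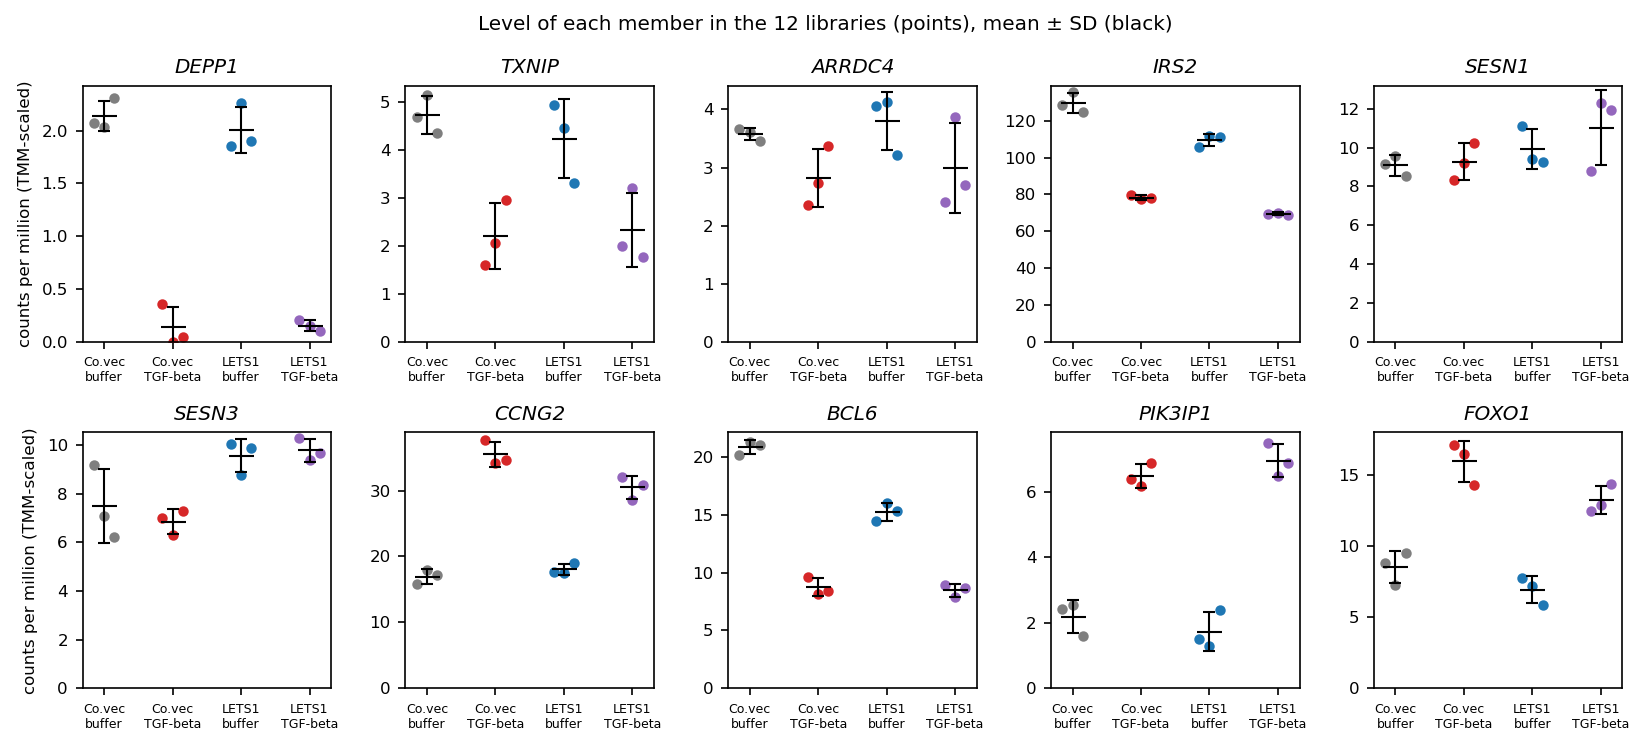
Level of each of the 10 members in CPM (y axis, from 0, its own scale per panel) in the 4 groups (x axis); points are libraries, black bars mean ± SD, n = 3. DEPP1 is at most 0.360 CPM in the TGF-β libraries, while CCNG2, PIK3IP1 and FOXO1 sit higher there.

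The arrestin-like members were lower on average with TGF-β; the difference between TXNIP and ARRDC4 was not tested. TXNIP, which binds thioredoxin and restrains glucose uptake, measured 4.70, 5.16 and 4.36 CPM in Co.vec buffer libraries and 1.59, 2.06 and 2.96 with TGF-β. In LETS1 cells it measured 4.93, 4.47 and 3.32 CPM with buffer and 2.0, 3.21 and 1.78 with TGF-β. The groups did not overlap in either cell population, but in LETS1 cells the gap was narrow, 3.32 against 3.21 CPM. The log2 fold changes were -1.10 (SE 0.20) and -0.86 (SE 0.20).

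ARRDC4, which shares the arrestin fold with TXNIP and also limits glucose uptake, had 3.66, 3.62 and 3.46 CPM in Co.vec buffer libraries against 2.36, 2.73 and 3.36 with TGF-β. LETS1 buffer libraries had 4.05, 4.12 and 3.22 CPM, and LETS1 TGF-β libraries 2.41, 3.86 and 2.69. The groups stayed apart in Co.vec cells and overlapped in LETS1 cells, with log2 fold changes of -0.34 (SE 0.17) in each. The value was -0.22 in Co.vec cells without TGF-β replicate 1, and in LETS1 cells -0.204 without TGF-β replicate 1 and -0.572 without TGF-β replicate 2. With any 1 library left out, TXNIP ran from -1.37 to -0.901 in Co.vec cells and from -1.16 to -0.694 in LETS1 cells. The same library was lowest for both genes in 3 of 4 groups and highest for both in 2 of 4. With 3 libraries a group such matches can arise by chance, and likeness of the pair was not tested. They are not particular to this pair: among Co.vec TGF-β libraries SESN1 was also lowest in replicate 1 (8.32 CPM) and highest in replicate 3 (10.2 CPM). TXNIP and ARRDC4 have between 31 and 104 fragments a library, so their spread between libraries includes counting error.

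On the insulin and PI3K side, the adaptor and the inhibitor moved in opposite directions with TGF-β. IRS2, the adaptor that couples insulin and IGF receptors to PI3K and a FOXO target, was the member with the highest level: 128.6, 135.5 and 124.7 CPM in Co.vec buffer libraries and 79.5, 77.3 and 78.0 with TGF-β. LETS1 cells gave 105.7, 111.6 and 111.1 CPM with buffer and 69.6, 70.2 and 68.8 with TGF-β. The 4 groups did not overlap one another, and the ligand difference was -0.73 (SE 0.05) on the log2 scale in Co.vec cells and -0.65 (SE 0.05) in LETS1 cells.

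PIK3IP1, a membrane protein that inhibits the PI3K catalytic subunit, was low with buffer, at 2.42, 2.53 and 1.60 CPM in Co.vec and 1.51, 1.28 and 2.39 CPM in LETS1 cells. With TGF-β it reached 6.37, 6.18 and 6.88 CPM in Co.vec cells and 7.48, 6.47 and 6.86 CPM in LETS1 cells. Every TGF-β library was above every buffer library. The fold was 2.96 in Co.vec cells (log2 1.57, SE 0.16) and 4.00 in LETS1 cells (log2 2.0, SE 0.17).

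FOXO1, the transcription factor at the centre of the group, was itself higher with TGF-β. Its level was 8.80, 7.29 and 9.52 CPM in Co.vec buffer libraries against 17.1, 16.4 and 14.3 with TGF-β, and 7.71, 7.16 and 5.86 CPM in LETS1 buffer libraries against 12.5, 12.8 and 14.3. The groups were apart in both cell populations, with log2 fold changes of 0.90 (SE 0.10) and 0.93 (SE 0.11). Protein level, phosphorylation and location of FOXO1 were not measured.

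The arrest genes split as well. CCNG2 encodes cyclin G2, an unusual cyclin tied to cell-cycle exit and a FOXO target. It went from 15.8, 17.9 and 17.2 CPM to 37.7, 34.2 and 34.7 in Co.vec cells, and from 17.7, 17.5 and 19.0 to 32.0, 28.6 and 30.8 in LETS1 cells. No buffer library reached a TGF-β library. The folds were 2.09 (log2 1.07, SE 0.07) and 1.69 (log2 0.76, SE 0.07).

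BCL6, a transcriptional repressor known from germinal centre B cells and as a FOXO target, was lower with TGF-β. It had 20.2, 21.3 and 21.0 CPM in Co.vec buffer libraries and 9.66, 8.19 and 8.43 with TGF-β; LETS1 cells had 14.5, 16.0 and 15.3 CPM and then 8.97, 7.88 and 8.64. With buffer the Co.vec libraries were above the LETS1 libraries, and with TGF-β the 2 sets overlapped. The ligand difference was -1.25 (SE 0.09) in Co.vec cells and -0.85 (SE 0.09) in LETS1 cells on the log2 scale.

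The sestrins, stress-induced proteins that bind GATOR2 and so restrain mTORC1, showed no separation by ligand. SESN1 had 9.14, 9.57 and 8.52 CPM in Co.vec buffer and 8.32, 9.22 and 10.2 in Co.vec TGF-β libraries, then 11.1, 9.42 and 9.28 in LETS1 buffer and 8.82, 12.3 and 11.95 in LETS1 TGF-β libraries. SESN3, a FOXO target, had 9.19, 7.09 and 6.21 CPM, then 6.99, 6.29 and 7.28, in Co.vec cells with buffer and TGF-β, and 10.1, 8.78 and 9.87, then 10.3, 9.38 and 9.66, in LETS1 cells. Buffer and TGF-β libraries overlapped for both genes in both cell populations. The log2 fold changes of SESN1 were 0.03 (SE 0.11) and 0.15 (SE 0.11), and those of SESN3 were -0.13 (SE 0.12) and 0.03 (SE 0.11). With any 1 library left out, the Co.vec values ran from -0.0434 to 0.111 for SESN1 and from -0.242 to 0.0429 for SESN3.

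**Figure D2:**
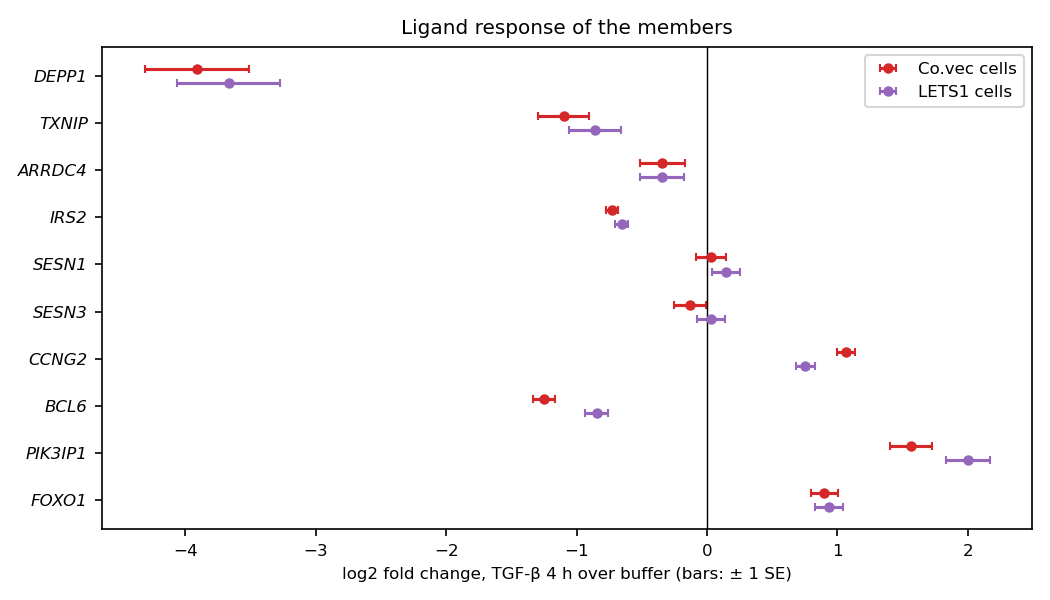
Log2 fold change of TGF-β at 4 h over buffer (x axis, bars ± 1 SE worked back from the edgeR F statistic) for each member (y axis) in Co.vec and LETS1 cells, 3 libraries a group. DEPP1 stands at -3.91 and -3.67, SESN1 and SESN3 lie near 0, and PIK3IP1 is highest at 1.57 and 2.0.

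Counted over members, 5 were lower and 3 higher with TGF-β without overlap in Co.vec cells, beside 22.9% of all tested genes lower and 24.4% higher on that criterion. In LETS1 cells 4 were lower and 3 higher, beside 24.9% and 24%. Since the members were chosen with the ligand response in view, nothing is read from these shares. The median log2 fold change of the 10 was -0.24 in Co.vec and -0.16 in LETS1 cells, against -0.02 over all tested genes in each. The members thus fell on both sides: TXNIP, IRS2, BCL6 and DEPP1 were on one side and CCNG2, PIK3IP1 and FOXO1 on the other in both cell populations.

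Per kilobase of exon, IRS2 led in all 4 groups, at 15.9 ± 0.671 CPM per kb in Co.vec buffer libraries. BCL6 followed at 3.51 ± 0.101, CCNG2 at 2.27 ± 0.146 and SESN1 at 1.77 ± 0.103, each apart from the next. FOXO1 and TXNIP, at 1.37 and 1.31, overlapped, ARRDC4 stood at 0.879, and DEPP1, SESN3 and PIK3IP1, at 0.718, 0.709 and 0.574, overlapped in turn. With TGF-β the order of Co.vec levels was IRS2, CCNG2, FOXO1, SESN1, PIK3IP1, BCL6, ARRDC4, SESN3, TXNIP and DEPP1. There SESN1 overlapped PIK3IP1, PIK3IP1 overlapped BCL6, and ARRDC4, SESN3 and TXNIP overlapped along the order. LETS1 cells had IRS2 first and CCNG2 after it with TGF-β, and DEPP1 last at 0.0511 CPM per kb. The CCNG2 value depends on a gene model that reaches from 77157151 to 77433388 on chromosome 4, so its length may not be that of the RNA in these cells.

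In the comparison of LETS1 with Co.vec cells, 3 of 10 members were called in each state. With buffer, LETS1 cells had less IRS2 and BCL6 than Co.vec cells, and more SESN3. IRS2 fell by 0.24 on the log2 scale (SE 0.05, adjusted p = 8.98e-05), to 84.4% of the Co.vec level, and BCL6 fell by 0.45 (SE 0.08, adjusted p = 2.98e-05), to 73.2%. For both, all 3 LETS1 libraries were below all 3 Co.vec libraries. SESN3 rose by 0.35 (SE 0.11, adjusted p = 0.0269), but its groups overlapped, since one Co.vec library had 9.19 CPM. These are edgeR quasi-likelihood tests with Benjamini-Hochberg adjustment over all tested genes. That is 2 of 10 lower and 1 of 10 higher, beside 6.56% of tested genes called lower and 8.57% higher. The SESN3 call was lost with DESeq2 (adjusted p = 0.0697) and without Co.vec buffer replicate 2 (0.122) or 3 (0.22), or LETS1 buffer replicate 1 (0.109) or 3 (0.0932). Results of these libraries were in view when the list was drawn up, so the p-values of the members are no independent evidence about the list.

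With TGF-β the members called were partly other ones. IRS2 was again lower, by log2 -0.17 (SE 0.05, adjusted p = 0.0117), and SESN3 again higher, by 0.51 (SE 0.12, adjusted p = 0.00125). SESN3 had 9.38 CPM or more in every LETS1 library and 7.28 or less in every Co.vec library, a fold of 1.43. CCNG2 fell by 0.22 (SE 0.06, adjusted p = 0.0164), to 85.8%, and its groups did not overlap. That made 2 lower and 1 higher of 10, beside 6.5% of tested genes lower and 7.58% higher. The CCNG2 call was lost without Co.vec TGF-β replicate 1 (adjusted p = 0.112) or LETS1 TGF-β replicate 2 (0.129). BCL6, lower in LETS1 cells with buffer, differed by -0.04 here (95% interval -0.25 to 0.16, adjusted p = 0.827).

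FOXO1 stood close to the threshold in both states. Its difference was -0.30 with buffer (95% interval -0.54 to -0.07, adjusted p = 0.0747) and -0.27 with TGF-β (-0.46 to -0.08, adjusted p = 0.0518). DEPP1 and TXNIP were not called either: DEPP1 differed by -0.09 with buffer (-0.54 to 0.36) and 0.16 with TGF-β (-1.32 to 1.63), and TXNIP by -0.16 (-0.51 to 0.19) and 0.08 (-0.39 to 0.54). The wide DEPP1 interval with TGF-β rests on 8 and 9 fragments in all. DEPP1 entered this comparison only because its buffer libraries passed the filter on low counts, so nothing is concluded from it. ARRDC4, SESN1 and PIK3IP1 did not pass the test in either state, with differences between -0.34 and 0.25. With 1 library left out, PIK3IP1 with buffer ran from -0.646 (without LETS1 buffer replicate 3) to -0.164 (without LETS1 buffer replicate 2). SESN1 with TGF-β ran from 0.164 (without LETS1 TGF-β replicate 2) to 0.382 (without LETS1 TGF-β replicate 1, adjusted p = 0.016). The buffer comparison and the ligand response of Co.vec cells share the Co.vec buffer libraries.

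**Figure D3:**
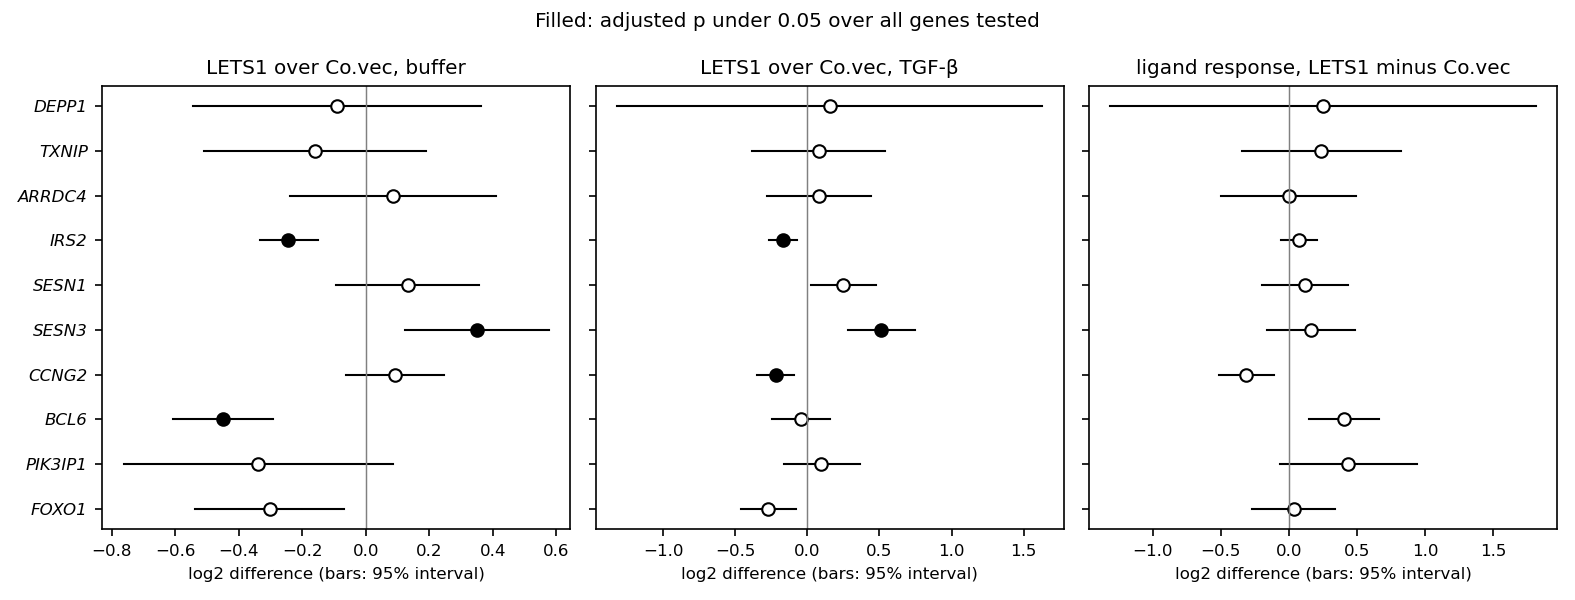
Log2 difference of each member (y axis) between LETS1 and Co.vec cells with buffer (left), with TGF-β (middle), and between their ligand responses (right); bars are 95% intervals, and filled points have an adjusted p under 0.05. IRS2 and SESN3 are filled in the left and middle panels, and no point is filled on the right.

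Whether LETS1 altered the ligand response of the members was tested as an interaction, the response in LETS1 cells minus that in Co.vec cells. None of the 10 passed in edgeR, nor in DESeq2, and 2 had an unadjusted p under 0.05 in each, as did 7.92% of all tested genes in edgeR and 5% in DESeq2. They were BCL6, whose decrease was smaller in LETS1 cells (difference 0.40, 95% interval 0.15 to 0.66, adjusted p = 0.198), and CCNG2, whose increase was smaller (-0.31, -0.51 to -0.11, adjusted p = 0.234). Few genes passed this contrast at all: 0.599% of those tested were lower and 0.0803% higher. For DEPP1 the difference was 0.25 (-1.31 to 1.81), which leaves room for a sizeable difference in either direction. For IRS2 it was 0.07, with a narrow interval of -0.06 to 0.21.

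Around the members, 4 lists of pathway genes were tested in all contrasts. They too were drawn up with earlier results known. In the insulin, PI3K, AKT and FOXO list, 15 of 23 tested genes rose with TGF-β and 2 fell in Co.vec cells, where 21.1% of all tested genes rose and 18.6% fell; the list's median log2 fold change was 0.20 against -0.02 over all genes. In LETS1 cells 12 rose and 1 fell, where 19.7% and 19.1% of all genes did. PIK3CD, a PI3K catalytic subunit, rose from 10.2 ± 1.41 to 20.6 ± 3.07 CPM (adjusted p = 1.7e-08) in Co.vec cells. INPP4B, a phosphoinositide phosphatase, rose from 38.8 ± 4.5 to 70.0 ± 3.94 (adjusted p = 1.59e-13). FOXO4, a paralog of FOXO1, fell from 5.29 ± 0.653 to 3.50 ± 0.317 CPM (adjusted p = 0.000884). With LETS1 4 of 23 rose in buffer, among them INSR, the insulin receptor, by 0.27 (adjusted p = 0.00824), and with TGF-β 1 fell, the adaptor IRS1, by 0.20 (adjusted p = 0.00521). All genes gave 8.57% higher in buffer and 6.5% lower with TGF-β. Over 17 alternatives the rises in buffer ran from 0 to 5, with 0 without LETS1 buffer replicate 3 and 2 without Co.vec buffer replicate 3. The INSR call was lost without replicate 3 of Co.vec buffer or of LETS1 buffer, and that of IRS1 without Co.vec TGF-β replicate 3, with adjusted p of at most 0.0751 and 0.0767.

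Other textbook FOXO targets went both ways: of 23 tested, 10 rose and 11 fell with TGF-β in Co.vec cells, and 9 rose and 9 fell in LETS1 cells, with medians of 0.00 and -0.05. Over all tested genes 21.1% rose and 18.6% fell in Co.vec cells, and 19.7% and 19.1% in LETS1 cells. ULK1, the kinase that starts autophagy, stood at 97.9, 96.8 and 94.6 CPM in Co.vec buffer libraries and at 371.5, 373.8 and 404.4 with TGF-β, a log2 change of 1.99 (SE 0.05, adjusted p = 1.01e-29). GABARAPL1, an autophagosome protein, rose by 0.90 (adjusted p = 3.43e-17) and BCL2L11, a pro-apoptotic BH3 protein, by 0.56 (adjusted p = 8.96e-09). The largest falls of this list were in PDK4, the kinase that shuts pyruvate dehydrogenase (log2 -1.21, adjusted p = 9.82e-23), the death ligand TNFSF10 (-1.03, adjusted p = 6.51e-05) and the co-regulator CITED2 (-0.94, adjusted p = 9.16e-10). With LETS1 in buffer 2 of 23 rose and 3 fell (8.57% and 6.56% of all genes), and with TGF-β 5 rose and 4 fell (7.58% and 6.5%). The 5 became 2 without Co.vec TGF-β replicate 3 or LETS1 TGF-β replicate 1, and ran from 2 to 5 over 17 alternatives. ERBB3, a receptor of the EGF receptor family, fell in buffer, from 31.3 ± 1.57 to 15.4 ± 0.861 CPM (adjusted p = 2.46e-13), and PPARGC1A, a coactivator of mitochondrial genes, rose from 18.0 ± 2.11 to 34.4 ± 1.94 (adjusted p = 1.21e-11).

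The thioredoxin, arrestin and MondoA list gives the partners of TXNIP and ARRDC4. ARRDC3, their paralog, was the only one of 13 tested genes to fall with TGF-β in Co.vec cells. It had 75.7, 69.9 and 75.7 CPM with buffer and 50.7, 50.9 and 49.2 with TGF-β (log2 -0.55, adjusted p = 1.88e-11), and in LETS1 cells it went from 87.4 ± 4.31 to 52.4 ± 1.13 CPM (log2 -0.74, adjusted p = 3.92e-15). MLXIP, which encodes MondoA, rose from 94.8 ± 4.98 to 166.4 ± 2.34 CPM in Co.vec cells (adjusted p = 2.95e-17), a direction opposite to TXNIP and ARRDC4. ARRDC2 and the glycolytic regulator PFKFB3 also rose, by 0.85 (adjusted p = 1.45e-14) and 0.80 (adjusted p = 2.25e-19). In all 4 rose and 1 fell there (21.1% and 18.6% of all genes), and 5 rose and 2 fell in LETS1 cells (19.7% and 19.1%). Over 17 alternatives the falls ran from 1 to 3 in each cell population. Thioredoxin itself, TXN, had 745.8 ± 19.6 CPM with buffer and 693.9 ± 45.2 with TGF-β in Co.vec cells (adjusted p = 0.0554), and fell with LETS1 in buffer by 0.20 (adjusted p = 0.000837). With LETS1 2 of 13 rose and 2 fell in buffer (8.57% and 6.56% of all genes), and 1 rose and 3 fell with TGF-β (7.58% and 6.5%). The falls were not stable: over 17 alternatives they ran from 1 to 4 in buffer and from 0 to 4 with TGF-β. In buffer the call of TXNRD2, the mitochondrial thioredoxin reductase, was lost with DESeq2 and without Co.vec buffer replicate 2 or 3 or any of the 3 LETS1 buffer libraries (adjusted p of at most 0.169). With TGF-β no gene fell without Co.vec TGF-β replicate 2, and 1 did without LETS1 TGF-β replicate 2 or 3.

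The sestrin, AMPK, GATOR and mTORC1 list was mixed: 7 of 23 rose and 6 fell with TGF-β in Co.vec cells (21.1% and 18.6% of all genes), 6 and 5 in LETS1 cells (19.7% and 19.1%). SESN2, the remaining sestrin, had 13.4 ± 1.02 and 12.8 ± 0.359 CPM in Co.vec cells (adjusted p = 0.599), which also fell short of the threshold in LETS1 cells (adjusted p = 0.0782). PRKAA2, a catalytic AMPK subunit, rose by 0.60 (adjusted p = 6.16e-10) and DDIT4, an mTORC1 inhibitor, by 0.48 (adjusted p = 3.61e-05), while NPRL2, a GATOR1 subunit, fell by 0.42 (adjusted p = 7.38e-05). With LETS1 in buffer 3 rose and none fell, beside 8.57% and 6.56% of all genes: DDIT4 by 0.47 (adjusted p = 0.000173), PRKAA2 by 0.37 (adjusted p = 4.42e-05) and PRKAG2, a regulatory AMPK subunit, by 0.21 (adjusted p = 0.0127). That PRKAG2 call was lost without replicate 3 of Co.vec buffer or of LETS1 buffer (adjusted p of at most 0.0547). PRKAG2 was also the 1 gene of this list that rose with LETS1 under TGF-β (0.30, adjusted p = 0.000399).

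**Figure D4:**
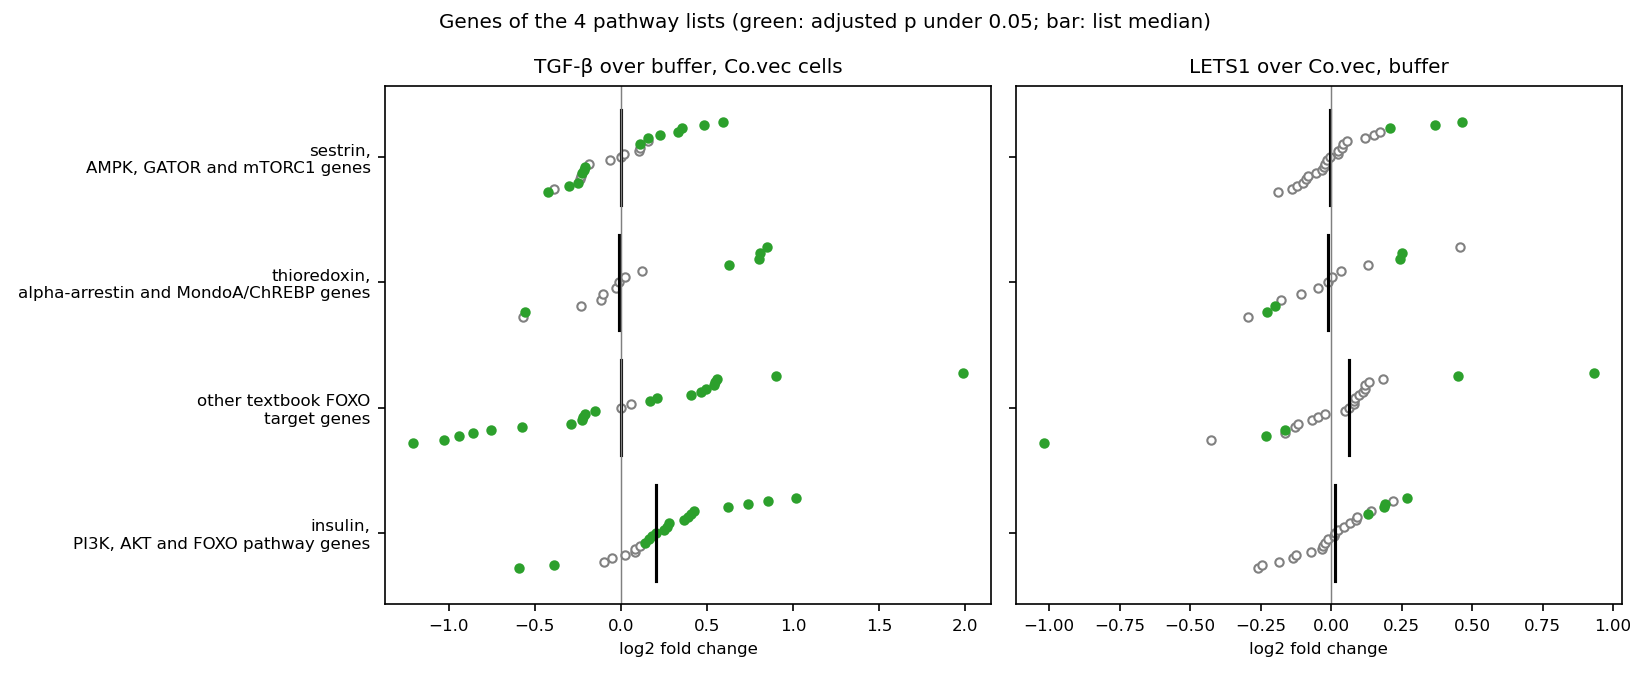
Log2 fold change (x axis) of every tested gene of the 4 pathway lists (y axis) with TGF-β in Co.vec cells (left) and with LETS1 in buffer (right); green points have an adjusted p under 0.05 and bars mark list medians. The insulin list has its median at 0.20 on the left, and the other medians lie near 0.

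By pattern over the 12 libraries, the genes most like DEPP1 among 10802 with a mean of at least 5 CPM were LGSN (Pearson r of log2 CPM 0.976), MARCHF9 (0.975), CCDC125 (0.975), CAMTA2 (0.972) and R3HDM2 (0.971). For TXNIP they were C14orf132 (0.951), ORC3 (0.951), SLC25A35 (0.94), ERN1 (0.939) and IPO13 (0.935). No other member was among them, but DEPP1, TXNIP, ARRDC4 and PIK3IP1 average under 5 CPM and could not be listed. ARRDC4 had an r of 0.907 with TXNIP. This was not particular to that pair, as BCL6 had 0.981 with IRS2 and 0.938 with DEPP1. The 12 points fall into buffer and TGF-β sets, a split that all these genes share, and the values are given as a description. DEPP1's own difference, -3.91 in Co.vec cells, was far larger than that of LGSN, -0.90, the gene with the highest r.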

How the data were processed

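RNA was sequenced on a DNBSEQ platform, per the labels' protocols. The authors deposited raw counts, whole fragments per gene; the submitters' processing notes name FastQC, cutadapt 2.10, STAR 2.7.5a, HTSeq 0.12.4 and GRCh38. The sources used here give neither a strand setting nor an annotation release. Fragments not assigned to a single gene were left out, among them 2.81% to 3.53% without a feature and 10.1% to 10.9% ambiguous between genes.

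The members and lists were chosen with earlier results of these data known. Genes were kept with filterByExpr and fitted with edgeR 4.0.16 in R 4.3.3 (TMM, robust quasi-likelihood fit, 1 mean per group, 12 libraries). The 5 contrasts were adjusted by Benjamini-Hochberg, with calls at an adjusted p under 0.05. The scripts were tested on simulated data. Symbols were matched for 42009 genes, and coordinates came from GENCODE release 29. Promoters came from RefSeq (GRCh38.p14), where all 10 members matched. Named genes are the 10 members, up to 3 genes per direction of each list and contrast with the largest change among those called, and the 5 genes most like DEPP1 and TXNIP; of the list genes allowed, a part is named, and SESN2 and RASSF4, as well as TXN in the ligand contrast and the per-library values of ULK1, ARRDC3 and PDK4, were added after values were seen. Gene symbols that only repeat an identifier were dropped from the likeness list after its first output. Replicates were compared by chi-square per degree of freedom on genes whose summed count in a pair reached 20, which gave 2.16 to 5.24 for the 12 pairs. No pairing by replicate number was seen, as 0 of 18 residual correlations exceeded 0.1. That does not show that libraries with the same number were made apart. Alternatives were RLE size factors, no filter, a replicate block, DESeq2 1.42.0, the compared groups alone, and each library left out.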

Additional observations from a re-analysis of the deposited data

Results flagged for a closer look

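PDK4 is a kinase that shuts pyruvate dehydrogenase and a textbook FOXO target. In the fit of all 12 libraries, only PDK4 of the 4 lists passed the test of a difference in ligand response between cell populations. None of the 10 members passed it, which does not show that their responses were alike. The response in LETS1 cells minus that in Co.vec cells was -0.3507 on the log2 scale (SE 0.07, adjusted p = 0.00287, edgeR's interaction test). PDK4 had 236.1, 223.5 and 219.4 CPM in Co.vec buffer libraries and 93.7, 96.9 and 103.1 with TGF-β. LETS1 cells had 241.7, 228.4 and 239.0 CPM and then 74.6, 82.0 and 83.9. With TGF-β all 3 LETS1 libraries lay below all 3 Co.vec libraries, and with buffer the groups overlapped. The call held in each of 16 alternatives, with log2 differences from -0.388 to -0.305 and an adjusted p of at most 0.0185. PDK4 was 1 of 23 tested in its own list, beside 0.599% of all tested genes called lower and 0.0803% higher in this contrast. Without LETS1 TGF-β replicate 1, 1 gene of the sestrin, AMPK, GATOR and mTORC1 list also passed.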

How the results depend on the processing

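The number of genes called stayed within 1.5 times in all 5 contrasts under every alternative run. Values of members with no call changed sign most. The ARRDC4 interaction (-0.00) became 0.00484 with RLE size factors, 0.0137 with no filter and 0.00458 with DESeq2. With each library left out in turn, it ran from -0.232 to 0.149, that of DEPP1 from -0.312 to 2.41, TXNIP from -0.0663 to 0.516, SESN3 from -0.0116 to 0.277 and FOXO1 from -0.0723 to 0.134. For LETS1 with TGF-β, DEPP1 ran from -0.406 to 2.32, TXNIP from -0.226 to 0.352, ARRDC4 from -0.145 to 0.232 and BCL6 from -0.0941 to 0.0265. FOXO1 passed the threshold in 2 of 17 alternatives with buffer and 8 of 17 with TGF-β, and SESN1 with TGF-β in 1. The IRS2 calls, BCL6 with buffer and SESN3 with TGF-β held in all 17. With the replicate block the counts called were 2297, 2158, 6251, 6136 and 106, against 2449, 2279, 6427, 6272 and 110 without it, and no member's call changed. The cause of these changes was not tested. Depth limits DEPP1 most, with at most 7 fragments in a TGF-β library.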
